A study of Homo sapiens with 6 samples.

Results

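The interferon-stimulated genes described here are 47 genes chosen by name, namely 4 STAT and IRF regulators (STAT2, IRF1, IRF7 and IRF9) and 43 effectors and sensors. All 47 had a row in the table of 26255 gene symbols, and 43 of the 47 passed the filter on low values that left 14349 genes to be tested. The RNA came from MDA-MB-231, an established human triple-negative breast cancer line. Cells infected with a lentivirus carrying a control hairpin (shNT, 3 libraries) were compared with cells infected with a lentivirus carrying a hairpin directed at HCAR1, the gene of the lactate receptor GPR81 (shGPR81, 3 libraries). Cells of both groups carried an integrated vector and had been grown under selection, and no interferon treatment is named for either. Neither group was an untransduced parental line, 2 hairpins against the receptor were made in the study, and which of them was sequenced is not given in the sources used here. The labels do not say whether the 3 libraries of a group were separate cultures, so p-values measure the spread between these libraries, which may be technical. Values are FPKM (fragments per kilobase of transcript, scaled by library size), a level per transcript length. Comparison between libraries is limited by differences that go with GC content, given below. FPKM summed over all genes also varied, from 876963 in the third shGPR81 library to 1003520 in the third shNT library.

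Type I interferons bind a receptor whose kinases JAK1 and TYK2 phosphorylate STAT proteins, STAT2 among them. With IRF9 these form ISGF3, the complex that binds the interferon-stimulated response element (ISRE) in promoters and switches on antiviral effectors. Many of these genes keep a low tonic level without added interferon, and some can also be switched on directly by IRF3 or IRF1. In tumour cells such tonic expression is commonly seen and differs between lines.

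The promoters of 3 members are shown because these genes carry the comparisons below: IFITM1 and IFI44L moved in opposite directions between the groups, and IFITM3, the neighbour and paralog of IFITM1, did not pass the test. The stretches run from 250 bases before to 50 bases after the annotated start of transcription, 5′ to 3′ on the gene's strand, as RefSeq gives them on GRCh38.p14, and each was found at a single place in GRCh37. The coordinates there are chr11:313790-314089 (plus strand) for IFITM1, chr11:320811-321110 (minus strand) for IFITM3 and chr1:79085883-79086182 (plus strand) for IFI44L. Capitals mark the core letters of the ISRE, which are GAAA, any 2 bases and GAAA again, searched on both strands.
IFITM1: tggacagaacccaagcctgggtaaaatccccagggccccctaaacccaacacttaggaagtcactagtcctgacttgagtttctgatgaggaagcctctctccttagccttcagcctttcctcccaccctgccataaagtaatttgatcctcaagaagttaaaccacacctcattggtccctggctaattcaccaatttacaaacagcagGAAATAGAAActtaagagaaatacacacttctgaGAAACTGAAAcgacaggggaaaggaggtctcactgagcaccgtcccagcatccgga
IFITM3: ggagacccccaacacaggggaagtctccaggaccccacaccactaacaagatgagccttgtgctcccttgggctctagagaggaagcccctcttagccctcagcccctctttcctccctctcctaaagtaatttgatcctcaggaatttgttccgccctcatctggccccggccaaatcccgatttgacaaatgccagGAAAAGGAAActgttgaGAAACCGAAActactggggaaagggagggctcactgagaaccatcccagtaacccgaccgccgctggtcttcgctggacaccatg
IFI44L: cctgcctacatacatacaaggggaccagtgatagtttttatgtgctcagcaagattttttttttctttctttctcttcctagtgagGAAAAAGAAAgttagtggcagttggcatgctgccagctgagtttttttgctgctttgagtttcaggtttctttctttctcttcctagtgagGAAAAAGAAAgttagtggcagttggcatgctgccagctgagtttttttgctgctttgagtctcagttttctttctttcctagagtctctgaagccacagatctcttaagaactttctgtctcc

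Each of the 3 promoters held 2 such words. Those of IFITM1 began 40 and 6 bases before the start and those of IFITM3 began 52 and 35 bases before it. In IFI44L they began 164 and 73 bases before the start and lay in a direct repeat of 85 bases whose copies were 91 bases apart. Among the members, 36 had a promoter in the RefSeq table, and 23 of the 36 (63.9%) held the word, against 1255 of all 35116 promoters of this length in the table (3.57%). TTCNNNGAA, the letters of the gamma-activated site, was in 10 of the 36 (27.8%) and in 7.66% of all promoters. A match is a description of letters and not a site of binding. The number of words was the same in IFITM1, IFITM3 and IFI44L, whose values in the comparison below differ.

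HCAR1, the gene the hairpin was directed at, stood at 0.968, 1.02 and 1.36 FPKM in the shNT libraries and at 0.978, 0.891 and 0.396 FPKM in the shGPR81 libraries. The groups overlapped, at a log2 fold change of -0.57 with limma (SE 0.31, adjusted p = 0.380). In reads these levels were 37, 40 and 52 against 40, 36 and 16, a ratio per library size of 0.677 (exact 95% interval 0.513 to 0.892, for counting error only). Without the third shGPR81 library the log2 fold change was -0.22. HCAR1 RNA thus did not pass the test in these libraries. By RT-qPCR and western blotting the study reports significantly reduced GPR81 in the cells of both hairpins. The treated group is called by its label, shGPR81, throughout.

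The line's own markers were present: VIM, CD44, AXL, CAV1 and KRT18 together summed to between 3886 and 5165 FPKM. Most of this sum was VIM, at 3211 to 4443 FPKM, and the lowest value among the others was 144 FPKM, for AXL. With limma the log2 fold changes were 0.22 for VIM, 0.10 for AXL, -0.07 for CAV1, -0.19 for KRT18 and -0.20 for CD44. None passed an adjusted p of 0.05. ESR1, PGR and CDH1 were listed at 0 in every library. EPCAM, placed among the low or absent markers, was at 5.20 to 6.86 FPKM. Of the leukocyte markers CD3E was at 0 in all libraries, and PTPRC was at 0 in all 3 shNT libraries and at most 0.0286 FPKM elsewhere. The leukocyte sum, carried mostly by CD14, ran from 2.57 to 4.51 FPKM in shNT and from 1.51 to 2.55 FPKM in shGPR81. CD14 was lower and LYZ higher on average in shGPR81, with log2 fold changes of -1.10 (adjusted p = 0.0562) and 0.56 (adjusted p = 0.390). CLEC4C and LILRA4, which mark plasmacytoid dendritic cells, the professional producers of interferon, were at 0 in all 6 libraries. Of 3 fibroblast markers DCN and LUM were at 0 in all libraries, and COL1A1 ran from 0.940 to 1.18 FPKM in shNT and from 0.503 to 0.719 FPKM in shGPR81. The endothelial markers PECAM1 and VWF summed to at most 0.178 FPKM in any library. The part of these markers in the results below was not tested.

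The members were expressed over a wide range of levels. IFITM3, a membrane protein that blocks virus entry at the endosome, had the highest mean over the 6 libraries at 274 FPKM. It was followed by LY6E, a lipid-anchored surface protein that affects virus entry, at 184 FPKM, by IFITM2 at 107 FPKM, by the ubiquitin-like modifier ISG15 at 35.1 FPKM and by the RNA-binding protein IFIT3 at 27.4 FPKM. At the other end 4 members were not tested. XAF1, a pro-apoptotic interferon target, was listed at 0 in every library. RSAD2, which encodes viperin, was at 0.0658, 0.0428 and 0.0219 FPKM in shNT and at 0.0410, 0 and 0.0207 FPKM in shGPR81. CMPK2, its neighbour on chromosome 2, reached at most 0.0980 FPKM, and the E3 ligase TRIM22 at most 0.0715 FPKM. RSAD2 rested on 6 reads summed over the 3 shNT libraries and 3 reads summed over the 3 shGPR81 libraries, so that no difference was detectable at this depth.

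**Figure D1:**
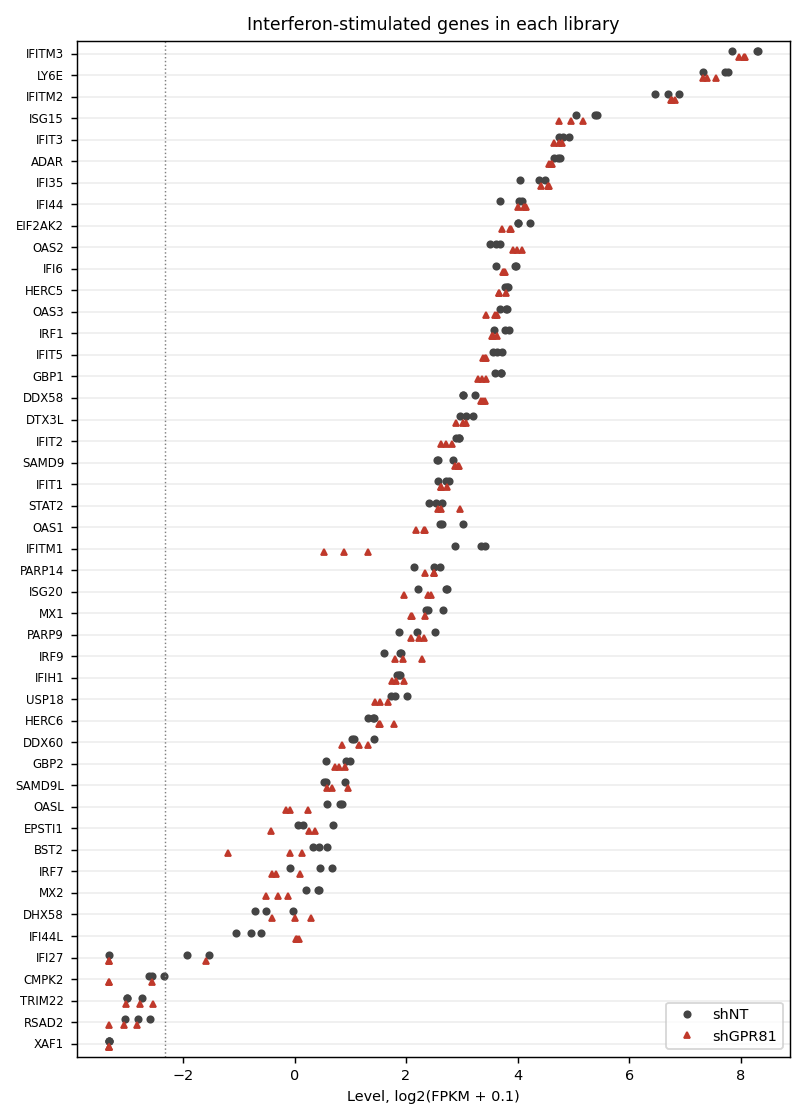
Level of each of the 47 members in each library, as log2(FPKM + 0.1), ordered by the mean over the 6 libraries, with circles for shNT and triangles for shGPR81. The dotted line is the filter of 0.1 FPKM, under which RSAD2, CMPK2, TRIM22 and XAF1 lie, and IFITM1 is the member whose circles and triangles are farthest apart.

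To ask whether the genes of the interferon response differed between the hairpins, each member was tested in a limma fit over all 14349 genes. A call needed both an adjusted p (Benjamini-Hochberg over all genes tested) under 0.05 and more than a 1.5-fold difference. Called members were few: IFITM1 and OASL fell (2 of 43 tested, 4.65%), where 1.59% of all tested genes were called lower, and IFI44L rose (1 of 43, 2.33%), where 0.955% of all tested genes were called higher. At an adjusted p under 0.05 with any fold there were 5 members (11.6%, against 5.13% of all genes), the others being GBP1, lower, and OAS2, higher. Without adjustment 18 of the 43 had a p under 0.05, against 2797 of the 14349 genes. The shares at an adjusted p rest on 1 to 5 genes, and all of these shares are given as descriptions.

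The change was within 1.5-fold in either direction in 38 of the 43 members, against 13180 of the 14349 genes. Its median was -0.09 on the log2 scale, against 0.01 over all tested genes. Lower values in shGPR81 were found for 29 members (67.4%, against 48.1% of all tested genes) and higher values for 14. The groups did not overlap in 13 members that were lower (30.2%, against 12.7% of all genes) and in 5 that were higher (11.6%, against 12.9%), and they overlapped in 25. The median deviation of the members from the shNT mean was -0.10, -0.09 and -0.10 in the 3 shGPR81 libraries and 0.02, 0.01 and 0.02 in the 3 shNT libraries. Deviations were taken from the shNT mean, so the shNT medians lie near 0 by construction and are no measure of spread. The pooled median was small and alike in the 3 shGPR81 libraries. It differed between these libraries when members were split by GC content, as given below.

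**Figure D2:**
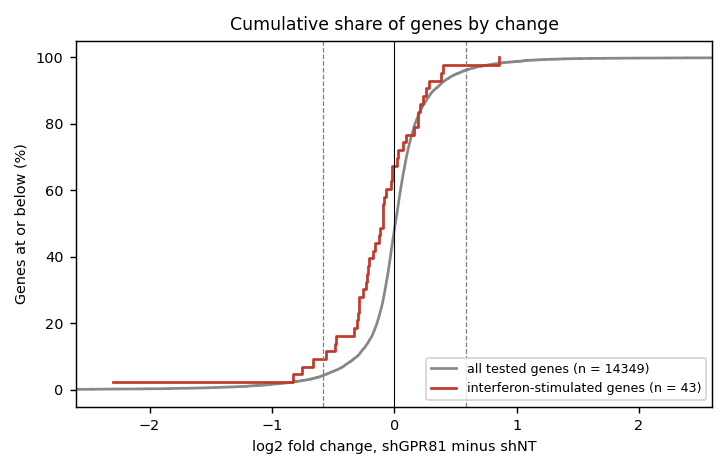
Cumulative share of genes by log2 fold change (shGPR81 minus shNT) for the 43 tested members and for all 14349 tested genes. The medians are -0.09 and 0.01, and the members' curve lies to the left in the middle of the range, with IFITM1 alone at -2.30.

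The regulators did not pass the test. STAT2, the subunit of ISGF3 that activates transcription, was at 6.17, 5.69 and 5.21 FPKM in shNT and 7.72, 5.83 and 6.11 FPKM in shGPR81. IRF9, its DNA-binding partner, was at 3.599, 3.66 and 2.96 FPKM against 4.79, 3.73 and 3.40 FPKM. In both genes the first shGPR81 library was the highest of the 6 and the groups overlapped, with log2 fold changes of 0.19 (SE 0.12, adjusted p = 0.471) and 0.21 (SE 0.15, adjusted p = 0.524). IRF1, a factor that can act without ISGF3, was at 11.8, 13.6 and 14.3 FPKM against 11.5, 12.2 and 11.8 FPKM. IRF7, which amplifies interferon production, was at 0.851, 1.27 and 1.49 FPKM against 0.698, 0.965 and 0.660 FPKM. Both were lower on average, by -0.16 (SE 0.08, adjusted p = 0.349) and -0.56 (SE 0.24, adjusted p = 0.253), with the second shGPR81 library of IRF7 above the first shNT library. The 4 regulators had a median log2 fold change of 0.02, 0 of 4 were called and 1 (IRF7) had an unadjusted p under 0.05. The 39 tested effectors and sensors had a median of -0.09, and the difference between these groups of genes was not tested.

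**Figure D3:**
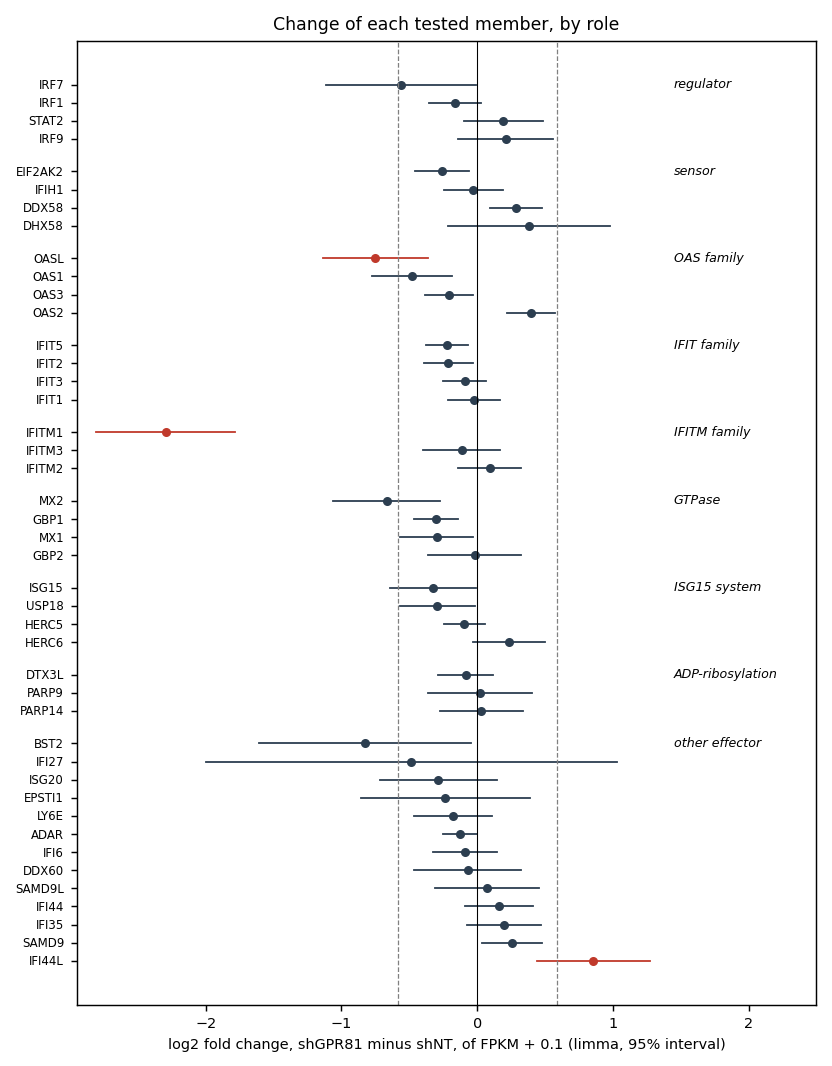
Log2 fold change (shGPR81 minus shNT) of each tested member with its 95% interval from limma, grouped by role, with dashed lines at a fold of 1.5 in either direction and called genes in red. IFITM1 and OASL lie beyond the line on the low side and IFI44L on the high side, MX2 and BST2 lie beyond it without a call, and the intervals of STAT2, IRF1 and IRF9 include 0 and that of IRF7 ends just below it.

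The IFITM genes showed the largest difference among the members, and it was in a single paralog. IFITM1, which restricts virus entry at the cell surface, was at 7.26, 10.01 and 10.5 FPKM in shNT and at 2.39, 1.75 and 1.35 FPKM in shGPR81 (means of 9.27 ± 1.75 and 1.83 ± 0.53 FPKM, SD, n = 3). All shGPR81 values were below all shNT values. It fell by 2.30 on the log2 scale (SE 0.22, adjusted p = 0.0020), a 4.91-fold difference. In RNA from whole cultures fewer cells expressing a gene and less RNA per cell cannot be told apart. The values were whole multiples of 1 read, which gave 51, 72 and 74 reads against 18, 13 and 10, and a ratio per library size of 0.198 (exact 95% interval 0.138 to 0.278, for counting error only). IFITM1 kept its call in each of the 14 alternative fits, with log2 fold changes from -2.50 to -1.86.

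IFITM2, the endosomal paralog next to it, was at 88.3, 104 and 118 FPKM in shNT and 107, 109 and 113 FPKM in shGPR81, which is 0.09 on the log2 scale (SE 0.10, 95% interval -0.14 to 0.32, adjusted p = 0.693) that turned to -0.02 without the first shNT library. IFITM3 was at 229, 312 and 317 FPKM against 265, 250 and 269 FPKM, which is -0.11 on that scale (SE 0.12, 95% interval -0.40 to 0.17, adjusted p = 0.690). For both genes the first shNT library was the lowest of the 6. Without that library IFITM3 and LY6E passed an adjusted p of 0.05 on the low side and DDX58 and SAMD9 on the high side. Each of these was at a fold under 1.5. This gave 3 lower and 4 higher members at that p in place of 3 and 2. The share over all genes at that p rose as well, to 7% from 5.13%. The ratio of IFITM1 to IFITM3 was 0.0318, 0.0320 and 0.0332 in shNT and 0.0090, 0.0070 and 0.0050 in shGPR81. IFITM1 was thus lower relative to its neighbour in every shGPR81 library (exact permutation p = 0.1, two-sided, the smallest that 3 against 3 libraries can give). The ratio restates the values of both genes, so this p is not separate support. IFITM1 lies at chr11:310041-315272 and IFITM3 at chr11:319676-329475 on the opposite strand (GRCh37, GENCODE). Of the 770 words of 75 bases in the longest IFITM1 transcript, 278 (36.1%) also occur in another gene: 257 in ENSG00000288681, an overlapping gene on the same strand, 67 in IFITM3 and 25 in IFITM2. How reads from such stretches were assigned is not given in the sources used here.

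**Figure D4:**
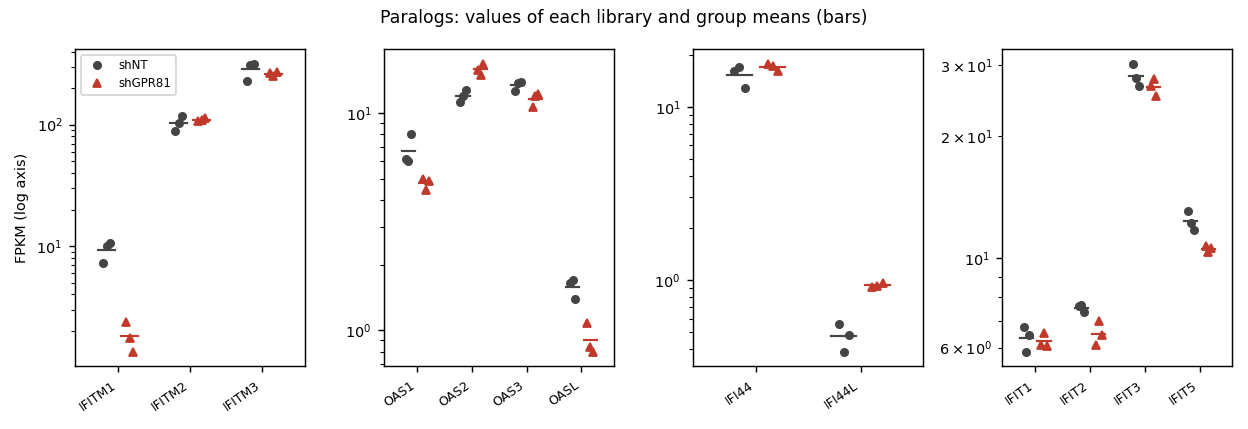
FPKM on a log axis in each library for the IFITM, OAS, IFI44 and IFIT genes, with bars at the group means. IFITM1 separates by group under IFITM2 and IFITM3, which overlap, OAS2 is higher while OAS1, OAS3 and OASL are lower in shGPR81, and IFI44L is higher beside an overlapping IFI44.

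Of the 4 OAS genes only OASL was called, and OAS2 was the member of the family with a higher mean in shGPR81. OAS1, OAS2 and OAS3 make 2′-5′ oligoadenylates, second messengers of the antiviral response, and OASL is a relative without that activity that enhances RNA sensing. OASL was at 1.66, 1.71 and 1.39 FPKM in shNT and at 1.08, 0.840 and 0.796 FPKM in shGPR81. All shGPR81 values were the lower ones, and OASL fell by 0.75 on the log2 scale (SE 0.16, adjusted p = 0.0464). The call was close to the threshold: it was kept in 4 of 14 alternative fits and in 0 of the 6 fits that leave out a library, where the adjusted p rose to as much as 0.168 without the second shNT library.

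OAS2 was at 11.3, 12.1 and 12.8 FPKM in shNT and at 15.8, 15.0 and 16.9 FPKM in shGPR81. Every shGPR81 value was above every shNT value, and the log2 fold change of 0.40 (SE 0.07, adjusted p = 0.0255) passed the p but not the fold of 1.5. Its adjusted p was under 0.05 in only 2 of the 6 fits that leave out a library, those without the first or the third shNT library, and reached 0.106 without the first shGPR81 library. OAS1 was at 6.13, 6.01 and 8.05 FPKM against 4.96, 4.44 and 4.90 FPKM (log2 fold change -0.48, SE 0.13, adjusted p = 0.0805). OAS3 was at 12.7, 13.8 and 13.9 FPKM against 10.7, 11.99 and 12.3 FPKM (log2 fold change -0.21, SE 0.08, adjusted p = 0.190). Neither passed, though the groups did not overlap in either. The 3 genes are neighbours on chromosome 12 in the order OAS1 (chr12:113343661-113371024), OAS3 (chr12:113375856-113414265) and OAS2 (chr12:113416200-113449528), all on the plus strand of GRCh37. The ratio of OAS2 to OAS1 was 1.84, 2.01 and 1.59 in shNT and 3.18, 3.39 and 3.45 in shGPR81, and that of OAS2 to OAS3 was 0.888, 0.876 and 0.919 against 1.47, 1.25 and 1.38. These ratios restate the values of the 3 genes within each library and are given without a test.

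IFI44L and IFI44 are neighbouring paralogs on chromosome 1 whose products have been linked to the restriction of viruses. IFI44L (chr1:79085587-79111830, GRCh37) was at 0.561, 0.385 and 0.484 FPKM in shNT and at 0.916, 0.928 and 0.964 FPKM in shGPR81. The shGPR81 values were all higher and close to each other, and IFI44L rose by 0.86 on the log2 scale (SE 0.18, adjusted p = 0.0381). In reads it had 44, 31 and 38 against 77, 77 and 80, a ratio per library size of 1.97 (exact 95% interval 1.56 to 2.48, for counting error only). The call was kept in 5 of 13 alternative fits, of which 1 left out a library (the first shNT library), and the adjusted p reached 0.135 without the second shGPR81 library. IFI44 (chr1:79115481-79129763) was at 16.1, 16.9 and 12.8 FPKM against 17.7, 17.2 and 16.1 FPKM, which overlap (log2 fold change 0.16, SE 0.11, adjusted p = 0.490). IFI44 was thus far the more abundant of the pair. The ratio of IFI44L to IFI44 was 0.0347, 0.0229 and 0.0378 in shNT and 0.0518, 0.0541 and 0.0600 in shGPR81 (exact permutation p = 0.1, two-sided). That ratio too restates the values of both genes and is not separate support.

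The 4 IFIT genes, which bind foreign RNA through tetratricopeptide repeats and lie together on chromosome 10, all had lower means in shGPR81, and none was called. IFIT5 was at 13.1, 12.2 and 11.8 FPKM in shNT and 10.7, 10.4 and 10.6 FPKM in shGPR81 (log2 fold change -0.22, SE 0.07, adjusted p = 0.111). IFIT2 was at 7.63, 7.66 and 7.33 FPKM against 6.09, 6.96 and 6.44 FPKM (log2 fold change -0.21, SE 0.08, adjusted p = 0.187). Neither passed, though the groups did not overlap in IFIT5 or IFIT2. IFIT3 was at 30.3, 27.9 and 26.6 FPKM against 26.6, 27.8 and 25.2 FPKM, and IFIT1, which binds RNA with incompletely methylated caps, had a log2 fold change of -0.02 (95% interval -0.22 to 0.17). In both the groups overlapped.

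Among the interferon-induced GTPases, GBP1, which coats intracellular pathogens, passed the adjusted p alone. It was at 12.9, 11.99 and 12.8 FPKM in shNT and 9.64, 10.2 and 10.7 FPKM in shGPR81. The difference of -0.30 on the log2 scale (SE 0.07, adjusted p = 0.0497) was under the fold of 1.5, and it passed in 0 of the 6 fits that leave out a library, with an adjusted p of up to 0.191 without the first shGPR81 library. MX2, which blocks nuclear import of viral genomes, was at 1.24, 1.26 and 1.05 FPKM against 0.713, 0.598 and 0.821 FPKM. The fold of MX2 was 1.59 (log2 fold change -0.67, SE 0.17), but its adjusted p of 0.0726 did not pass, and it was called in 1 of 14 alternative fits, the GC correction described below (adjusted p = 0.0484). MX1, the cytoplasmic relative that traps viral nucleoproteins, was at 5.17, 5.05 and 6.24 FPKM against 4.15, 4.22 and 4.94 FPKM (log2 fold change -0.30, SE 0.12, adjusted p = 0.212). GBP2 overlapped, with a log2 fold change of -0.02. In MX1, MX2 and GBP1 every shGPR81 library was below every shNT library.

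Of the RNA sensors, DDX58 (RIG-I, which detects 5′-triphosphate RNA) was at 9.37, 8.01 and 8.01 FPKM in shNT and 10.3, 10.04 and 10.6 FPKM in shGPR81. The protein kinase EIF2AK2 (PKR, which halts translation) was at 18.6, 15.9 and 15.9 FPKM against 13.002, 14.7 and 14.4 FPKM. The groups did not overlap in either gene, in opposite directions, and the log2 fold changes of 0.29 (SE 0.08, adjusted p = 0.106) and -0.26 (SE 0.09, adjusted p = 0.147) did not pass. DHX58 (LGP2), a co-regulator of the other sensors, had a wide spread of 0.602, 0.881 and 0.511 FPKM against 1.12, 0.910 and 0.654 FPKM (log2 fold change 0.38, SE 0.26, adjusted p = 0.489). IFIH1 (MDA5), the sensor of long double-stranded RNA, had a log2 fold change of -0.03 (95% interval -0.25 to 0.19). In GENCODE, 88.6% of the words of 75 bases in the longest DDX58 transcript also occur in the overlapping gene ENSG00000288684. DDX58 may therefore not be a separate measurement. Whether the annotation behind the FPKM held that gene is not given in the sources used here.

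ISG15 is conjugated to proteins by HERC5 and removed by USP18, which also dampens the type I receptor. ISG15 was at 32.8, 42.6 and 41.7 FPKM in shNT and 30.9, 26.5 and 36.1 FPKM in shGPR81, with the third shGPR81 library above the first shNT library (log2 fold change -0.33, SE 0.14, adjusted p = 0.246). USP18 was at 3.21, 3.37 and 3.92 FPKM against 3.11, 2.78 and 2.62 FPKM (log2 fold change -0.29, SE 0.12, adjusted p = 0.226). HERC6, a relative of HERC5, was at 2.54, 2.38 and 2.58 FPKM against 3.35, 2.77 and 2.78 FPKM (log2 fold change 0.23, SE 0.11, adjusted p = 0.315). USP18 was lower and HERC6 higher in all shGPR81 libraries, but neither passed. HERC5 was close in both groups, with a log2 fold change of -0.09. The ISG15-activating enzyme UBA7 and the conjugating enzyme UBE2L6, from the list of other pathway genes, had log2 fold changes of 0.10 and 0.09 with adjusted p of 0.692 and 0.695.

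The ADP-ribosylation genes PARP9, PARP14 and DTX3L, the ubiquitin ligase partner of PARP9, had log2 fold changes between -0.08 and 0.03, and their groups overlapped. PARP9 and DTX3L overlap on opposite strands, as do RSAD2 and CMPK2, and whether the counting used the strand is not given in the sources used here.

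Of the other effectors, BST2 (tetherin, which holds budding virions on the cell) had a fold above 1.5 that did not pass. It was at 1.25, 1.395 and 1.16 FPKM in shNT and 1.002, 0.338 and 0.845 FPKM in shGPR81 (log2 fold change -0.83, SE 0.33, adjusted p = 0.230). These values came from 14, 16 and 13 reads against 12, 4 and 10, so that counting error alone was large, with an exact 95% interval of 0.339 to 0.956 for the ratio. The log2 fold change was -0.42 without the second shGPR81 library, so that the fold above 1.5 rested on that library. SAMD9, an inhibitor of translation in poxvirus infection, was at 7.09, 5.84 and 5.81 FPKM against 7.23, 7.53 and 7.58 FPKM (log2 fold change 0.26, SE 0.10, adjusted p = 0.195). ADAR, which edits adenosine in double-stranded RNA, was at 27.1, 26.2 and 25.1 FPKM against 24.3, 24.1 and 23.4 FPKM (log2 fold change -0.12, SE 0.05, adjusted p = 0.262). The groups did not overlap in BST2, SAMD9 or ADAR. LY6E was at 160, 209 and 218 FPKM against 168, 160 and 188 FPKM (log2 fold change -0.18, SE 0.12, adjusted p = 0.512). IFI27, a classical marker of interferon exposure, was at or near 0, with 0.163, 0 and 0.246 FPKM against 0, 0 and 0.233 FPKM (log2 fold change -0.48, SE 0.65, adjusted p = 0.756). The 7 remaining members of this class, IFI6, IFI35, IFI44, ISG20, SAMD9L, EPSTI1 and DDX60, overlapped between the groups, with log2 fold changes from -0.29 (ISG20) to 0.20 (IFI35).

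The other genes of the pathway were 41 genes outside the members, of which 29 were tested and 0 were called. With limma 7 of the 29 had an unadjusted p under 0.05, and 2 passed an adjusted p of 0.05 at any fold, against 2797 of the 14349 genes and 5.13% of them. The 9 interferon genes on the list (IFNA1, IFNA2, IFNB1, IFNE, IFNK, IFNG, IFNL1, IFNL2 and IFNL3) were listed at 0 in every library, as were IRF8 and ZBP1. The 6 receptor chains were expressed and all 6 had lower means in shGPR81, the clearest being IFNLR1 of the type III receptor at 2.95, 2.83 and 2.67 FPKM against 2.14, 1.999 and 2.06 FPKM (log2 fold change -0.43, SE 0.10, adjusted p = 0.0585). JAK1 and TYK2, the kinases of the type I receptor, had log2 fold changes of 0.03 and 0.01.

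The pair that passed the adjusted p, named here after their values were seen, were adaptors of nucleic acid sensing. MAVS, the mitochondrial adaptor of DDX58 and IFIH1, was at 11.2, 11.9 and 11.9 FPKM in shNT and 8.197, 8.198 and 8.14 FPKM in shGPR81 (log2 fold change -0.51, SE 0.06, adjusted p = 0.0047). TMEM173 (STING), the adaptor of DNA sensing, was at 12.3, 13.2 and 14.3 FPKM against 18.9, 16.8 and 17.3 FPKM (log2 fold change 0.41, SE 0.08, adjusted p = 0.0269). Neither had a fold of 1.5, MAVS at 1.42 and TMEM173 at 1.33. The adjusted p of TMEM173 reached 0.118 without the first shGPR81 library, while that of MAVS was at most 0.0367 over the 14 alternative fits. MAVS lies on chromosome 20, where 353 of 388 tested genes were lower in shGPR81 and the median difference was -0.39 on the log2 scale. For the other chromosomes this median lay between -0.03 and 0.08, and 0 of the tested members lie on chromosome 20. The value of 0.08 was that of chromosome 9, where 177 of 558 tested genes were lower and where DDX58 lies. The part of either chromosome in the values of its genes was not tested.

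The shNT libraries differed among themselves with the GC content of the genes. For the 17 tested members whose longest transcript has a GC content of at least 50%, such as IFITM3, LY6E, ISG15 and IRF7, the median deviation from the shNT mean was -0.22 in the first shNT library and 0.11 and 0.13 in the others, and -0.21, -0.16 and -0.10 in the shGPR81 libraries. For the 26 members below 50% it was 0.09, -0.06 and -0.05 in shNT and -0.09, -0.02 and -0.12 in shGPR81. In the GC-rich members the first shNT library was therefore at or below the level of the shGPR81 libraries. After a correction for GC content in each library, chosen after these values were seen, 8 members were lower and 3 higher at an adjusted p under 0.05, while the share over all genes was 10.2%. The lower members were EIF2AK2, GBP1, IFIT5, IFITM1, ISG15, LY6E, MX2 and OASL, and the higher ones were DDX58, IFI44L and OAS2.

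**Figure D5:**
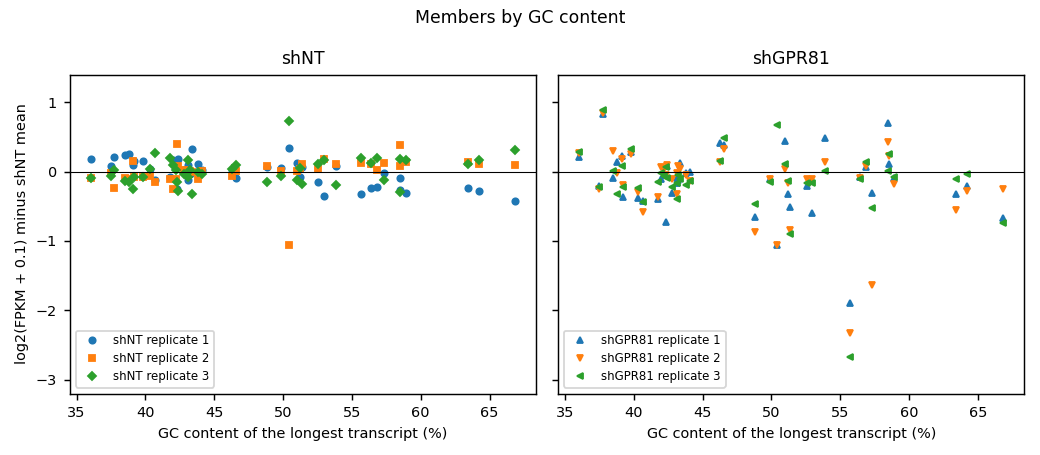
Deviation of each tested member from its shNT mean (log2 scale) in each library against the GC content of its longest transcript in percent, with the shNT libraries in one panel and the shGPR81 libraries in the other. In the first shNT library GC-rich members lie low (median -0.22 at a GC content of 50% or more), and IFITM1 stands apart in the shGPR81 panel.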

How the data were processed

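Poly(A) RNA of 3 shNT and 3 shGPR81 MDA-MB-231 libraries was sequenced as 75-base single-end reads. The submitters' processing notes name TopHat2 2.0.13, Bowtie2 2.2.3, SAMtools 0.1.19 and Cuffnorm 2.2.1. The study's methods give the human genome hg19. The deposited description names a mouse build, which was not used because the cells and symbols are human. The authors' deposited table holds FPKM per gene symbol, of which 8456 are 0 in every library, and its annotation is not given in the sources used here.

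The members and lists were chosen with earlier results of these data known. The filter kept genes that reached 0.1 FPKM in 3 or more of the 6 libraries. Their log2(FPKM + 0.1) values were fitted in limma 3.58.1 under R 4.3.3 (lmFit, then eBayes with trend), two-sided and without a block. Fold changes on this scale understate those of low genes. Values per library are given for the regulators, called members, members with a mean of at least 1 FPKM and groups without overlap, the 10 largest changes, the 5 highest levels and HCAR1. RSAD2, IFI44 and the pathway genes given by value were chosen after their values were seen. A few genes of the marker and pathway lists are not reported here.

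Reads were recovered where the 6 FPKM values of a gene were whole multiples of 1 step (tolerance 0.0001), for 4923 of 15931 genes and 17 members. With the longest GENCODE transcript as the gene's length, the median estimate was 12192915 to 13036245 reads per library. The lengths behind the FPKM are not given in the sources used here, so these are rough estimates and not totals of sequenced reads. Other genes gave no whole reads, so no count test was run. Replicates differed by more than sampling noise (chi-square per gene of 1.61 to 4.19). Deviations from each gene's group mean correlated across genes at 0.12, 0.02 and 0.01 between the same-numbered libraries of the groups. Genes are not independent replicates, and the libraries were not paired. Alternatives were other offsets (1 and 0.01), no filter, a filter of 1 FPKM, median centring, quantile normalization, a replicate block, each library left out in turn, and a GC correction (lowess, span 0.3) added after the data were seen. Loci and transcripts came from GENCODE on GRCh37.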

Additional observations from a re-analysis of the deposited data

How the results depend on the processing

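The fall of IFITM1 was called in each of the 14 alternative fits. With an offset of 1, no filter, a filter of 1 FPKM or a replicate block, 1 member was called lower (IFITM1) and 0 higher. The filter of 1 FPKM left 39 members to test, and IFI44L was not among them. Over all genes no filter gave 211 lower and 132 higher calls. The filter of 1 FPKM gave 163 and 111, and the replicate block gave 197 and 115. In the fit reported limma left 18 of 43 at an unadjusted p under 0.05. Leaving out single libraries gave 1 lower member each time and 0 to 1 higher. The cause was not tested. The median log2 fold change of the members was -0.104 with no filter and -0.109 after quantile normalization, and ran from -0.126 to -0.0818 when single libraries were left out. IFITM2 reversed to -0.0177 without the first shNT library and was 0.193 without the third. With the replicate block IFITM1 and OAS2 passed an adjusted p of 0.05, and it was 0.0574 for OASL and 0.0724 for IFI44L; the labels share replicate numbers and no pairing is stated. With an offset of 1, OASL and IFI44L kept an adjusted p under 0.05 (0.0346 and 0.0244) but not the fold. Over all genes the calls went from 228 lower and 137 higher to 142 and 75 with an offset of 1, 121 and 81 without the second shNT library, 160 and 126 without the third, 133 and 65 without the first shGPR81 library, 135 and 66 without the second and 169 and 85 without the third, and to 256 and 152 without the first shNT library and 284 and 170 with the GC correction. Some members below 1 FPKM rest on few reads, such as RSAD2 with 6 summed over shNT and 3 over shGPR81. Others do not, such as IFI44L with 113 and 234. Members with no recovered reads have no known depth.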
